A study of Homo sapiens and Mus musculus with 36 samples.

Results

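Matricellular proteins are secreted into the extracellular matrix, where they signal to cells more than they build fibres. The genes followed here are those of the thrombospondins THBS1, THBS2 and THBS3, of osteopontin (SPP1), SPARC, tenascin C (TNC), periostin (POSTN) and the CCN proteins CTGF (CCN2) and CYR61 (CCN1), together with TGFBI, a secreted adhesion protein named for its induction by TGF-beta. These 10 genes were chosen by symbol, in human files by CTGF and CYR61 as the older names and in mouse files by the title-case symbols. They are 10 of 26457 human and 10 of 22673 mouse symbols, and 7 of them were among the 15899 symbols of the drug files. The family was chosen with earlier results of these libraries known, in which the rise of SPP1 in HuH-7 knockout cells without IFN stood out, so that rise is given as a description and the other tests carry no independent weight.

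Osteopontin and the thrombospondins bind integrins, CD44 and CD47 on neighbouring cells, and osteopontin is a known secreted product of liver tumour cells. CTGF and CYR61 are classical targets of YAP and TAZ, the co-activators that act through TEAD factors, and CTGF, THBS1 and TGFBI are also classical targets of TGF-beta. THBS1 is known to activate latent TGF-beta, and SPARC to bind collagen.

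Counts came from 36 bulk RNA sequencing libraries of 4 tumour lines in 17 groups. The knockout cells carried DOT1L editing by guide sg1 or sg2 (2 libraries per guide), and wild-type cells with the guide sgNeg2 were the control (2 libraries). DOT1L is a histone H3 methyltransferase. This set existed for HuH-7 (human hepatocellular carcinoma) without and with IFN, for the mouse lines Hepa1-6 and Hep53.4, labelled hepatocellular carcinoma, and for LLC, labelled lung carcinoma. Wild-type HuH-7 cells formed a drug set of 3 libraries after 7 days of EPZ-5676, an inhibitor of the DOT1L enzyme, and 3 with DMSO. The type, dose and time of IFN, the time of DMSO and whether edited cells were pools or clones are details that the labels leave out, as is whether replicates came from separate cultures. Knockout tests pooled the libraries of sg1 and sg2 unless a single guide is named. P-values therefore measure the spread between libraries, which may be technical and in knockout groups also holds differences between the guides. Statements that groups do not overlap describe only the few libraries shown. The share of all genes so separated is not given, and no support is drawn from such statements.

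The targeted transcript was lower in every knockout set, between -0.67 in Hep53.4 and -1.48 in Hepa1-6 on the log2 scale, whereas EPZ-5676, which acts on the enzyme, moved it by -0.10. Library depth ran from 19580588 to 22649969 counts for HuH-7 guides without IFN and from 42637155 to 61227426 in all others. All 10 hepatocyte markers examined reached 5 CPM (counts divided by the TMM-scaled library size, times 1000000) in every HuH-7 group. Of 8 listed in mouse, 6 or 7 did so in Hepa1-6, 3 in Hep53.4 and none in LLC, where Alb, Apoa1, Ttr and Fgb were at 0 and the lung epithelial markers summed to at most 0.322 CPM. Of 8 leukocyte markers PTPRC, the pan-leukocyte gene, had 0 counts in all HuH-7 libraries that carried a guide, while CD14 led the list with group means of up to 6.00 CPM in HuH-7, and Cd14 with up to 51.2 CPM in mouse, in Hep53.4. In bulk libraries fewer expressing cells and less RNA per cell cannot be told apart.

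The 250 bases upstream of the RefSeq start sites (GRCh38.p14) are shown for SPP1, TGFBI, THBS1 and CTGF. These are the members called in both HuH-7 knockout sets, and their promoters lie next to the changes described below. Nothing is read from their number, since the rise of SPP1 without IFN was known when the members were chosen. The calls of THBS1 and CTGF depended on single sgNeg2 libraries, as given below. Capitals mark the TEAD motif GGAATG, the AP-1 motif TGANTCA, the RUNX motif AACCACA and the TATA motif TATAAA, each searched on both strands, with no overlap among the matches found. Each sequence runs 5′ to 3′ along the gene.
SPP1 (chr4:87975464-87975713, plus strand): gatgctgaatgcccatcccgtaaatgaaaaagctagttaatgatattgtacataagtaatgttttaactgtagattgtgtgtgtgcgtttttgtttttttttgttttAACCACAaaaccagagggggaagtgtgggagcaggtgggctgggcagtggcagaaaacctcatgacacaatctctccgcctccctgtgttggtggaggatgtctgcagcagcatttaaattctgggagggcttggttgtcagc
TGFBI (chr5:136028738-136028987, plus strand): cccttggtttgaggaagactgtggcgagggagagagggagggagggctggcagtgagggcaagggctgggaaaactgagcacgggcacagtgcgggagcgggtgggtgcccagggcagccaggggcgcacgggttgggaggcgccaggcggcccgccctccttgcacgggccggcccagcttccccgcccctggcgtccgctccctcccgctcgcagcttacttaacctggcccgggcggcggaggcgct
THBS1 (chr15:39580829-39581078, plus strand): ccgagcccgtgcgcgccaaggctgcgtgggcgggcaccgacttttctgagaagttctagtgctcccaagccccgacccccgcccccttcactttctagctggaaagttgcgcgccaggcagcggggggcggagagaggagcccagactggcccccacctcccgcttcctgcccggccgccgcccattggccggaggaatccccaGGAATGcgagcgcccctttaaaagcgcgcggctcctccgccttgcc
CTGF (chr6:131951373-131951622, minus strand): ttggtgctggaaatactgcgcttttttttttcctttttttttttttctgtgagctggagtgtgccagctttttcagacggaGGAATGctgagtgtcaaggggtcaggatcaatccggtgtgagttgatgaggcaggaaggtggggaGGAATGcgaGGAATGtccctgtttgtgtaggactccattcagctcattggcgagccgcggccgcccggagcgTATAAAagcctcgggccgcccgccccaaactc

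The CTGF window held 3 TEAD motifs, starting 169, 104 and 95 bases before the start site, and 1 TATA motif at 32 bases. One TEAD motif lay 46 bases before the start of THBS1, 1 RUNX motif lay 143 bases before the start of SPP1, and none of the 4 motifs was in the TGFBI window. Among 35116 RefSeq promoter windows of the same length, 11.9% held the TEAD motif, 10.7% the TATA motif, 6.57% the AP-1 motif and 3.65% the RUNX motif. A match is a description of the letters and not of a bound site. Promoter entries were found for 9 of the 10 genes. SPP1 lies on chromosome 4 (87975714 to 87983411), TGFBI on chromosome 5 (136028988 to 136063818), THBS1 on chromosome 15 (39581079 to 39599466) and CTGF on chromosome 6 (131948176 to 131951372).

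In HuH-7 cells without IFN, the transcripts of SPP1, TGFBI and THBS1 were higher and that of CTGF was lower in DOT1L knockout than in sgNeg2 libraries. Of the 10 members 7 passed the filter on low counts. Apart from SPP1, whose rise here was known when the members were chosen, 2 of the other 6 were higher and 1 lower at an adjusted p below 0.05. Of all 16448 tested genes 11.3% were called, and nothing is read from the members' count against that share, since values of this comparison were known at that choice. All-gene calls were 1143 higher and 720 lower, or 1056 and 1015 with RLE scaling and 1242 and 1408 with DESeq2. The knockout libraries also held less of the hepatocyte markers, 13336 to 15455 CPM in sum against 16405 to 16455 CPM in sgNeg2 libraries, with 7 of 10 lower and 1 (AFP) higher. Fibroblast markers summed to 70.9 to 79.9 CPM in knockout and 120.8 to 121.3 CPM in sgNeg2 libraries, nearly all PDGFRA, with THY1 at 0 in knockout libraries, and of 4 tested 1 was higher (LUM) and 1 lower. Endothelial markers summed to 16.0 to 18.4 CPM in knockout and 8.66 to 9.71 CPM in sgNeg2 libraries, nearly all PECAM1, with KDR at 0 in both, and of 3 tested 1 (PECAM1) was higher. Their part in the member changes was not tested.

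SPP1, the integrin and CD44 ligand osteopontin, had 17.7, 20.3, 18.3 and 19.2 CPM in the knockout libraries, against 2.93 and 3.15 CPM in the sgNeg2 libraries. Every knockout library lay far above both controls, and libraries of either guide overlapped. The log2 change was 2.63 ± 0.12 (SE). TGFBI had 13.001, 12.7, 13.3 and 11.6 CPM in knockout libraries, against 5.21 and 4.85 CPM in sgNeg2 libraries, again without overlap, and the log2 change was 1.33 ± 0.16 with an adjusted p of 0.000153.

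THBS1, the angiogenesis inhibitor thrombospondin 1, had 68.2, 65.7, 76.1 and 72.9 CPM in knockout libraries, against 56.2 and 51.8 CPM in sgNeg2 libraries. The groups did not overlap, but the change was small, at 0.39 ± 0.08 with an adjusted p of 0.00968. It was 0.45 with an adjusted p of 0.0607 without sgNeg2 replicate 1, and 0.28 with an adjusted p of 0.232 without replicate 2. In GENCODE v29 448 exon bases of THBS1 overlap FSIP1 and 411 overlap AC037198.2 on the other strand, and the strand setting of the counting is not given in the sources used here.

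CTGF was the one member called lower. Its knockout libraries had 269, 266, 264 and 259 CPM, against 344 and 348 CPM in sgNeg2 libraries, so all of them lay below both controls. The log2 change was -0.39 ± 0.08 with an adjusted p of 0.00713, and -0.40 with an adjusted p of 0.0782 without sgNeg2 replicate 1. An antisense RNA, AL133346.1, shares 195 exon bases with CTGF. CYR61, the other CCN gene, had 34.2, 32.8, 36.6 and 36.3 CPM in knockout libraries and 32.7 and 33.5 CPM in sgNeg2 libraries, which overlap, with a log2 change of 0.08 ± 0.12 and an adjusted p of 0.737.

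THBS3 and SPARC were not called. THBS3, a thrombospondin of the pentamer-forming class, averaged 6.96 ± 1.36 CPM in knockout and 9.44 ± 0.803 CPM in sgNeg2 libraries (SD, n = 4 and 2), with a log2 change of -0.44 ± 0.17 (adjusted p = 0.111, and 0.0498 with DESeq2). Its exons share 1027 bases with the antisense AC234582.1 and 146 with MTX1. SPARC lay between 0.651 and 1.48 CPM in all 6 libraries, so the interval of its change, -0.84 to 0.86, was wide. THBS2, TNC and POSTN were nearly silent in HuH-7, with at most 4, 12 and 1 counts in any guide library, and were not tested.

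Compared per kilobase of exon, the control levels of HuH-7 differed widely among members. The length is that of all GENCODE v29 exons of a gene merged (7810 bases for TGFBI, 2321 for SPP1). The transcripts made can be shorter, so the order of members with near values depends on this choice. CTGF led with 148 CPM per kb in sgNeg2 libraries (n = 2), followed by CYR61 with 13.5, THBS1 with 5.90, THBS3 with 2.04, SPP1 with 1.31, TGFBI with 0.644 and SPARC with 0.226 CPM per kb. The ranges of neighbours in this order did not overlap, each over 2 libraries.

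**Figure D1:**
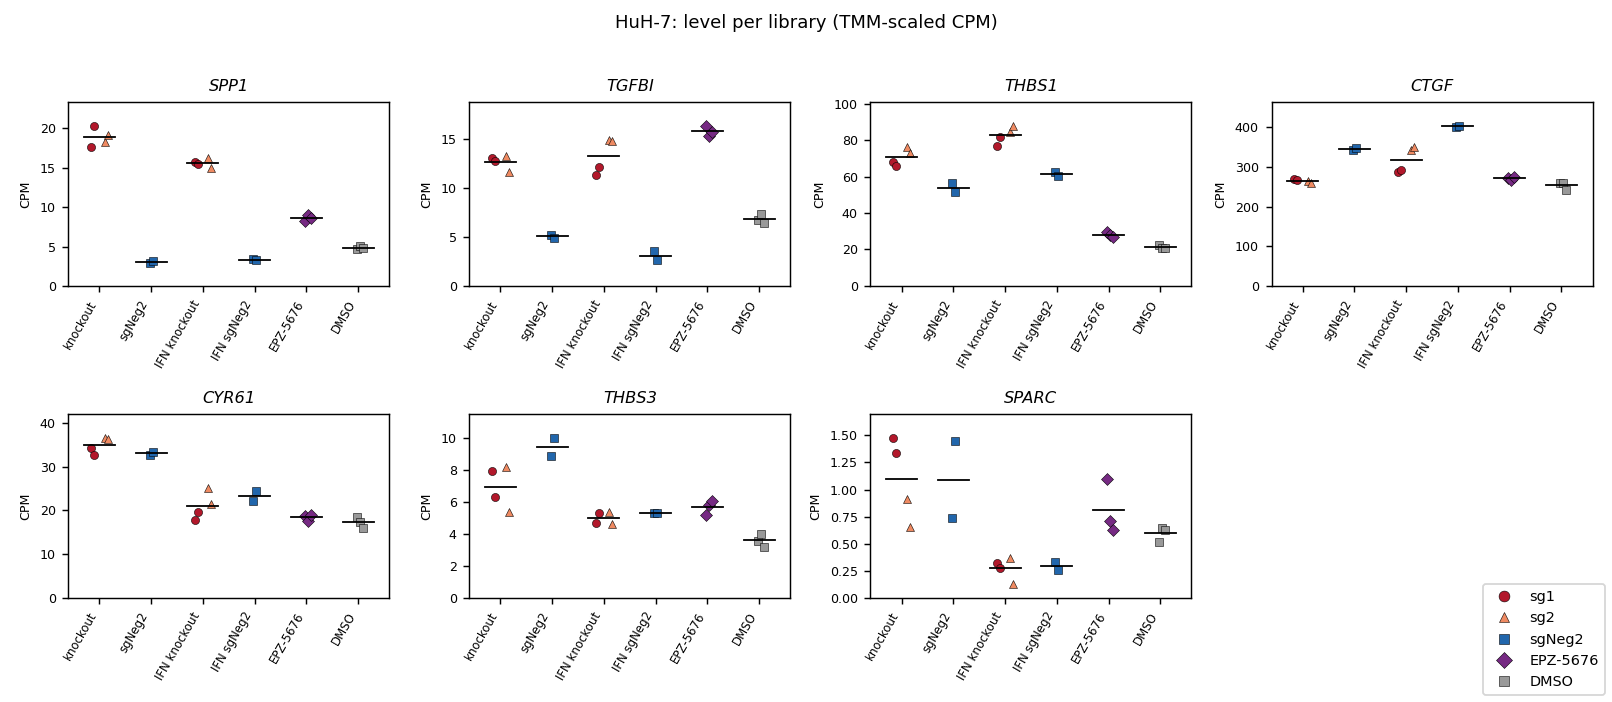
Level of the 7 tested members in each HuH-7 library (CPM after TMM scaling, y axis from 0), with knockout or EPZ-5676 to the left of its control, points for libraries by guide or drug, and lines at group means. SPP1 and TGFBI separate fully in each pair, where the rise of SPP1 without IFN was known when the members were chosen. CTGF is lower in knockout and slightly higher with EPZ-5676, and SPARC is at most 1.48 CPM. Guide and drug libraries were scaled apart.

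With IFN, the knockout set gave calls for the same 4 members, 3 higher and 1 lower of 7 tested, where 12.4% of all genes were called. Hepatocyte markers, 2 higher and 2 lower of 10, summed to 8478 to 9281 CPM in IFN knockout and 9549 to 9651 CPM in IFN sgNeg2 libraries. Endothelial markers, 1 (PECAM1) of 3 tested higher, summed to 6.71 to 9.81 CPM in IFN knockout and 3.19 to 4.38 CPM in IFN sgNeg2 libraries, with CDH5 and KDR at 0. Fibroblast markers, 2 higher and 1 lower of 4 tested, summed to 41.9 to 53.1 CPM in IFN knockout and 74.2 to 80.2 CPM in IFN sgNeg2 libraries. The part of these markers was not tested. The median log2 change was -0.09 over the 7 and -0.06 over all genes. SPP1 had 15.7, 15.5, 16.3 and 15.0 CPM in IFN knockout libraries, against 3.45 and 3.24 CPM in IFN sgNeg2 libraries. Its log2 change was 2.22 ± 0.11 with an adjusted p of 6.36e-08, and again every knockout library exceeded both controls.

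TGFBI had 11.3 and 12.1 CPM with sg1, 14.8 and 14.7 CPM with sg2 and 3.52 and 2.63 CPM with sgNeg2 under IFN. The change was 2.11 ± 0.16 (adjusted p = 2.56e-06), with every knockout library above both controls. THBS1 had 76.8, 81.6, 84.6 and 87.8 CPM in IFN knockout libraries, against 62.8 and 60.1 CPM in IFN sgNeg2 libraries. It was higher by 0.43 ± 0.08 (adjusted p = 0.00402), and by 0.40 with an adjusted p of 0.0685 without IFN sgNeg2 replicate 2.

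CTGF had 288 and 292 CPM with sg1 and 343 and 349.9 CPM with sg2, against 402 and 403 CPM with sgNeg2. It was lower by either guide, with a pooled log2 change of -0.34 ± 0.08 (adjusted p = 0.0133). The call was lost without either IFN sgNeg2 library, at -0.34 each (adjusted p = 0.102 and 0.106), and in a fit of the 6 IFN libraries alone, at -0.28 (adjusted p = 0.145). CYR61 (-0.15 ± 0.12), THBS3 (-0.09 ± 0.16) and SPARC (-0.09 ± 0.49) were not called. With sg1 alone, however, CYR61 was called lower, at -0.31 (adjusted p = 0.0228), so its pooled value averages guides that differ.

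Whether the knockout changes differed between the IFN conditions was tested by the interaction. In edgeR none of the 7 members was called, where 0.505% of all genes were (34 higher and 49 lower, or 42 and 33 with RLE scaling and 222 and 178 with DESeq2). At an unadjusted p below 0.05, where 12.9% of all genes were, there were 2, TGFBI with a difference of 0.78 ± 0.22 (adjusted p = 0.142) and SPP1 with -0.41 ± 0.15 (adjusted p = 0.263). DESeq2 called 1 member, TGFBI, with 0.84 and an adjusted p of 0.0336. With sg2 alone TGFBI (0.96) and CTGF (0.19) were called, but so were 4171 of all genes, against 83 in the main fit. With sg1 alone no member was called, where 641 of all genes were. The intervals of the others include 0, for example -0.19 to 0.27 for THBS1.

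Among sgNeg2 libraries, those with IFN had less THBS3, SPARC, TGFBI and CYR61 than those without. These were 4 of 7 members, where 67.8% of all genes were called. TGFBI averaged 3.08 ± 0.628 CPM with IFN and 5.03 ± 0.252 CPM without (SD, n = 2 each), a log2 change of -0.71 ± 0.18 with an adjusted p of 0.00387. CYR61 averaged 23.3 ± 1.54 CPM with IFN and 33.1 ± 0.553 CPM without, a change of -0.51 ± 0.14 (adjusted p = 0.00502). THBS3 changed by -0.83 ± 0.19 (adjusted p = 0.00175) and SPARC by -1.88 ± 0.54 (adjusted p = 0.00708). SPARC averaged 0.295 ± 0.0508 CPM with IFN and 1.09 ± 0.506 CPM without, and was not called without sgNeg2 replicate 2 of the cells without IFN, at -1.36 (adjusted p = 0.0946).

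In knockout cells IFN gave 2 members higher (THBS1 and CTGF) and 4 lower (SPP1, THBS3, SPARC and CYR61), where 78.6% of all genes were called. THBS1 was higher by 0.23 ± 0.07 (adjusted p = 0.00738) and CTGF by 0.27 ± 0.07 (adjusted p = 0.00223), and TGFBI was not called, at 0.07 ± 0.12. SPP1 changed by -0.27 ± 0.08 (adjusted p = 0.00595), though by -0.20 with an adjusted p of 0.0621 without sg1 replicate 2. Marker sums differed as well. Between the sgNeg2 groups hepatocyte markers, 2 higher and 5 lower of 10, summed to 9549 to 9651 CPM with IFN and 16405 to 16455 CPM without. Fibroblast markers, 0 higher and 3 lower of 4 tested, summed to 74.2 to 80.2 CPM with IFN and 120.8 to 121.3 CPM without, and endothelial markers, 0 higher and 2 lower of 3 tested, to 3.19 to 4.38 CPM with IFN and 8.66 to 9.71 CPM without. Their part was not tested. The IFN libraries also differed in depth and composition. They held 47594968 to 61227426 counts and a histone gene share of 0.0329 to 0.0472%, against 19580588 to 22649969 counts and 0.827 to 1.00% without IFN. These cannot be told apart from IFN. The DMSO libraries lay within the IFN ranges of both, with 48912627 to 58628528 counts and a histone gene share of 0.0335 to 0.0344%. Set against the DMSO libraries in place of sgNeg2 without IFN, IFN sgNeg2 cells had THBS3 at 0.49, CYR61 at 0.36 and SPP1 at -0.61 on the log2 scale, where the sgNeg2 comparison gave -0.83, -0.51 and 0.14. In the same comparison with DMSO, THBS1 was at 1.45 (adjusted p = 2.51e-20) and CTGF at 0.59 (adjusted p = 2.37e-17), both called, and SPARC was at -1.08 (adjusted p = 0.0558) and not called. TGFBI was called lower against either control.

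The DOT1L inhibitor was compared with DMSO in wild-type HuH-7 cells. Of the 7 listed members 5 were higher and 0 lower, where 33.7% of 15023 tested genes were called, and the median log2 change was 0.45 against 0.0091 over all genes. THBS2, TNC and POSTN are not among the symbols listed for these libraries, whose lowest count is 1. Hepatocyte markers summed to 15467 to 15530 CPM with EPZ-5676 and 17374 to 17496 CPM with DMSO, with 7 of 10 lower and 1 higher. PECAM1, the 1 endothelial marker listed of 6, was higher, at 8.15 to 9.97 CPM with EPZ-5676 and 4.44 to 6.41 CPM with DMSO, and fibroblast markers, 1 higher and 1 lower of 4 tested, summed to 89.0 to 94.6 CPM with EPZ-5676 and 101.0 to 105.1 CPM with DMSO. The part of these markers was not tested.

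TGFBI had 16.3, 15.3 and 15.7 CPM with EPZ-5676, against 6.75, 7.37 and 6.43 CPM with DMSO, a log2 change of 1.20 ± 0.09 with an adjusted p of 2.37e-19. SPP1 had 8.24, 8.97 and 8.63 CPM with EPZ-5676, against 4.63, 5.11 and 4.84 CPM with DMSO, a change of 0.83 ± 0.12 (adjusted p = 1.45e-08). For both genes all 3 inhibitor libraries lay above all 3 vehicle libraries. SPP1 thus had 2.63 in knockout cells and 0.83 with the inhibitor on the log2 scale, values from separate fits with different controls, whose difference was not tested.

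THBS1 had 29.3, 27.9 and 26.6 CPM with EPZ-5676, against 22.7, 20.6 and 20.9 CPM with DMSO, a change of 0.38 ± 0.06 (adjusted p = 2.28e-07). THBS3 had 5.19, 5.83 and 6.03 CPM with EPZ-5676, against 3.56, 4.01 and 3.21 CPM with DMSO, a change of 0.66 ± 0.14 (adjusted p = 0.000107). Neither gene's groups overlapped, and THBS3 here lay on the other side of 0 from its value in knockout cells without IFN. CTGF had 271, 268 and 275 CPM with EPZ-5676 and 260.0, 259.9 and 242 CPM with DMSO. It was called higher, by 0.10 ± 0.02 (adjusted p = 0.000546), on the other side of 0 from its value in knockout cells. CYR61 changed by 0.09 ± 0.07 (adjusted p = 0.357) and SPARC by 0.45 ± 0.35 (adjusted p = 0.349).

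**Figure D2:**
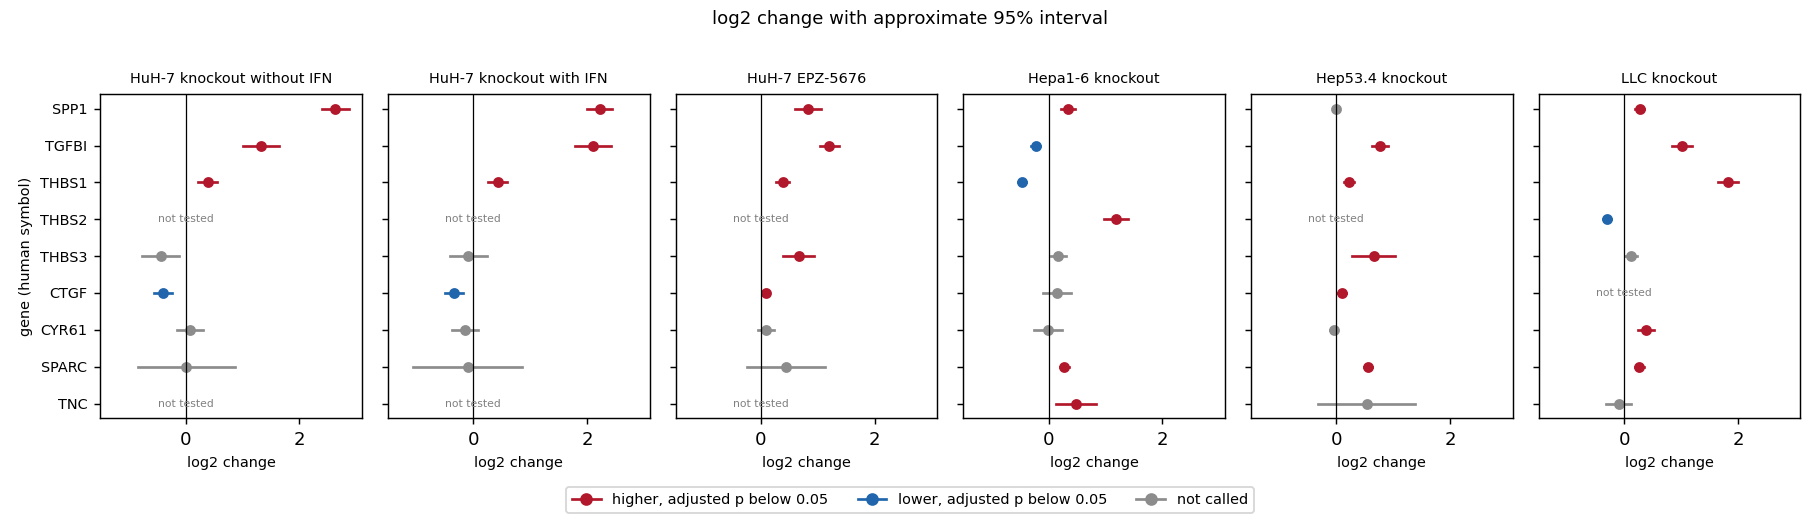
Change of 9 members in the 6 comparisons of knockout with sgNeg2 and of EPZ-5676 with DMSO (x axis, log2 change; bars, 1.96 standard errors; POSTN is left out). TGFBI is right of 0 in 5 panels and left of 0 in Hepa1-6, and THBS1 ranges from -0.47 in Hepa1-6 to 1.83 in LLC.

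The mouse lines differed in which members they expressed. On a joint scale of the 18 mouse libraries, sgNeg2 cells of Hepa1-6, Hep53.4 and LLC had 108 to 109, 981 to 983 and 1075 to 1083 CPM of Spp1. Thbs1 ran the other way, with 1251 to 1276, 56.1 to 58.2 and 5.35 to 5.71 CPM in the same order of lines, as did Tgfbi, with 297 to 304, 15.5 to 15.6 and 8.08 to 8.31 CPM. None of these ranges of 2 libraries overlapped.

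Thbs2 was highest in LLC among the sgNeg2 cells, with 367 to 383 CPM there, 7.66 to 8.60 CPM in Hepa1-6 and at most 2 counts in Hep53.4. Ctgf had 0 counts in all 6 LLC libraries, against 95.8 to 98.3 CPM in Hepa1-6 and 149.9 to 151 CPM in Hep53.4. Postn was at 0 in all Hep53.4 libraries and had 4 counts in 1 LLC library only.

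In Hepa1-6, knockout cells, set against sgNeg2 cells, had more Thbs2, Spp1, Sparc and Tnc and less Thbs1, Tgfbi and Postn. These are 4 higher and 3 lower of 10 tested members, where 32.8% of 12493 genes were called, and the median log2 change was 0.16 against 0.012 over all genes. Thbs1 had 949.9, 950.2, 878 and 881 CPM in knockout libraries, against 1276 and 1254 CPM in sgNeg2 libraries, a change of -0.47 ± 0.04 (adjusted p = 3.17e-09). Thbs2 had 17.7, 16.7, 19.8 and 20.0 CPM in knockout libraries, against 7.66 and 8.62 CPM in sgNeg2 libraries, a change of 1.19 ± 0.11 (adjusted p = 1.55e-08). These 2 thrombospondins, close relatives that form trimers, moved in opposite directions, each without overlap between groups.

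Tgfbi had 270.1, 268, 242 and 250.3 CPM in Hepa1-6 knockout libraries, against 304 and 298 CPM in sgNeg2 libraries, a change of -0.22 ± 0.04 (adjusted p = 0.000201). Spp1 had 142, 152, 127 and 129 CPM in knockout libraries, against 108 and 109 CPM in sgNeg2 libraries, a change of 0.34 ± 0.06 (adjusted p = 0.00155). Sparc averaged 739 ± 39.1 CPM in knockout and 612 ± 15.9 CPM in sgNeg2 libraries (SD, n = 4 and 2), a change of 0.27 ± 0.04 (adjusted p = 2.87e-05). All 3 were without overlap.

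The calls of the 2 low members of Hepa1-6 rested on single libraries. Tnc had 4.78, 4.90, 5.16 and 4.71 CPM in knockout libraries, against 2.73 and 4.30 CPM in sgNeg2 libraries, a change of 0.48 ± 0.18 (adjusted p = 0.0405), and of 0.19 (adjusted p = 0.572) without sgNeg2 replicate 1. It was also not called without sg1 replicate 2 or either sg2 library, nor with DESeq2 (adjusted p = 0.0584). Postn had 6, 27, 11 and 16 counts in knockout libraries, against 21 and 96 counts in sgNeg2 libraries, and its change of -1.96 ± 0.60 (adjusted p = 0.0159) was -0.30 (adjusted p = 0.855) without sgNeg2 replicate 2 and -2.73 without replicate 1.

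Ctgf and Cyr61 of Hepa1-6 differed by guide. Cyr61 had 185 and 185 CPM with sg2 and 227 and 232 CPM with sg1, on either side of the 209.8 and 209 CPM of sgNeg2, so that the pooled change of -0.02 was not called while sg1 alone gave 0.13 and sg2 alone -0.18, both called. Ctgf had 93.4 and 99.1 CPM with sg2, 117 and 121 CPM with sg1 and 98.3 and 96.0 CPM with sgNeg2. Thbs3 was not called, with 0.17 ± 0.07 (adjusted p = 0.0572). On the joint mouse scale the hepatocyte markers of these cells summed to 12236 to 12717 CPM in knockout and 17389 to 17541 CPM in sgNeg2 libraries, with 7 of 8 tested lower, and 4 of 5 tested fibroblast markers were lower, their sum being 343 to 356 CPM in knockout and 420.2 to 436 CPM in sgNeg2 libraries. Of 4 tested leukocyte markers 2 were higher and 1 lower. Their list summed to 30.9 to 33.5 CPM in knockout and 32.0 to 32.7 CPM in sgNeg2 libraries. The part of these markers in the member changes was not tested.

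In Hep53.4, 5 of 8 tested members were higher in knockout cells and 0 lower, where 39.2% of all genes were called. The median log2 change was 0.38 against -0.0027 over all genes. Tgfbi had 24.2, 24.4, 26.4 and 24.3 CPM in knockout libraries, against 14.6 and 14.5 CPM in sgNeg2 libraries, a change of 0.77 ± 0.07 (adjusted p = 4.51e-10). Sparc, whose protein is also called osteonectin, had 221, 221, 208 and 206 CPM in knockout libraries, against 143 and 148 CPM in sgNeg2 libraries, a change of 0.56 ± 0.03 (adjusted p = 4.25e-14). Both were separated without overlap.

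Thbs1 had 64.4, 65.3, 58.3 and 62.0 CPM in Hep53.4 knockout libraries, against 54.5 and 52.6 CPM in sgNeg2 libraries, a change of 0.22 ± 0.05 (adjusted p = 0.000314). Thbs3 changed by 0.65 ± 0.19 (adjusted p = 0.00682) at 3.15 ± 0.389 CPM in knockout and 1.99 ± 0.520 CPM in sgNeg2 libraries, and by 0.41 (adjusted p = 0.194) without sgNeg2 replicate 1. Ctgf changed by 0.10 ± 0.03 (adjusted p = 0.0175), a call lost without either sgNeg2 library (0.09 with an adjusted p of 0.144, and 0.10 with 0.0991) and in the joint fit (adjusted p = 0.4).

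Spp1, the member with the largest change in both HuH-7 knockout sets, was not called in Hep53.4. It had 902, 899, 938 and 946 CPM in knockout libraries and 919 and 922 CPM in sgNeg2 libraries, which overlap. Its log2 change was 0.0014 ± 0.03, with an interval of -0.05 to 0.05. Cyr61 (-0.04) and Tnc (0.54 ± 0.43) were not called, and Thbs2 had 2 to 6 counts in each knockout library against 2 and 0 in sgNeg2 libraries. Of the hepatocyte markers 1 was higher and 2 lower of 5 tested, with sums on the joint mouse scale of 850.0 to 924 CPM in knockout and 951 to 959 CPM in sgNeg2 libraries. On the same scale endothelial markers, 1 higher and 1 (Cdh5) lower of 4 tested, summed to 29.3 to 33.6 CPM in knockout and 50.7 to 51.9 CPM in sgNeg2 libraries. Fibroblast markers, 1 of 2 tested lower, summed to 9.84 to 11.1 CPM in knockout and 14.3 to 15.1 CPM in sgNeg2 libraries. The part of these markers was not tested.

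In LLC, 5 of 8 tested members were higher in knockout cells and 1 lower, where 33.5% of all genes were called, with a median log2 change of 0.27 against 0.0083 over all genes. Thbs1 had 20.2, 20.6, 21.9 and 21.3 CPM in knockout libraries, against 6.14 and 5.71 CPM in sgNeg2 libraries, a change of 1.83 ± 0.09 (adjusted p = 1.27e-11). Tgfbi had 18.6, 19.3, 16.1 and 17.2 CPM in knockout libraries, against 8.93 and 8.62 CPM in sgNeg2 libraries, a change of 1.02 ± 0.09 (adjusted p = 6e-08). In both genes every knockout library lay above both controls.

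Spp1 had 1374, 1387, 1437 and 1412 CPM in LLC knockout libraries, against 1155 and 1156 CPM in sgNeg2 libraries, a change of 0.28 ± 0.04 (adjusted p = 2.28e-05). Thbs2 had 319, 319, 335 and 335 CPM in knockout libraries, against 395 and 409 CPM in sgNeg2 libraries, a change of -0.30 ± 0.04 (adjusted p = 3.17e-06). As in Hepa1-6, Thbs1 and Thbs2 moved apart in LLC, but each in the other direction. Cyr61 was higher by 0.39 ± 0.07 (adjusted p = 0.000206) and Sparc by 0.27 ± 0.04 (adjusted p = 1.7e-05), while Thbs3 (0.12) and Tnc (-0.09) were not called.

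LLC knockout cells also had more of 4 of 6 tested fibroblast markers, among them Col3a1, at 1391 CPM in knockout and 979.6 CPM in sgNeg2 libraries. On the joint mouse scale the 8 markers summed to 1465 to 1493 CPM in knockout and 1032 to 1059 CPM in sgNeg2 libraries, with Thy1 and Fap at 0 in both. Their part in the rise of Thbs1 and Sparc was not tested.

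**Figure D3:**
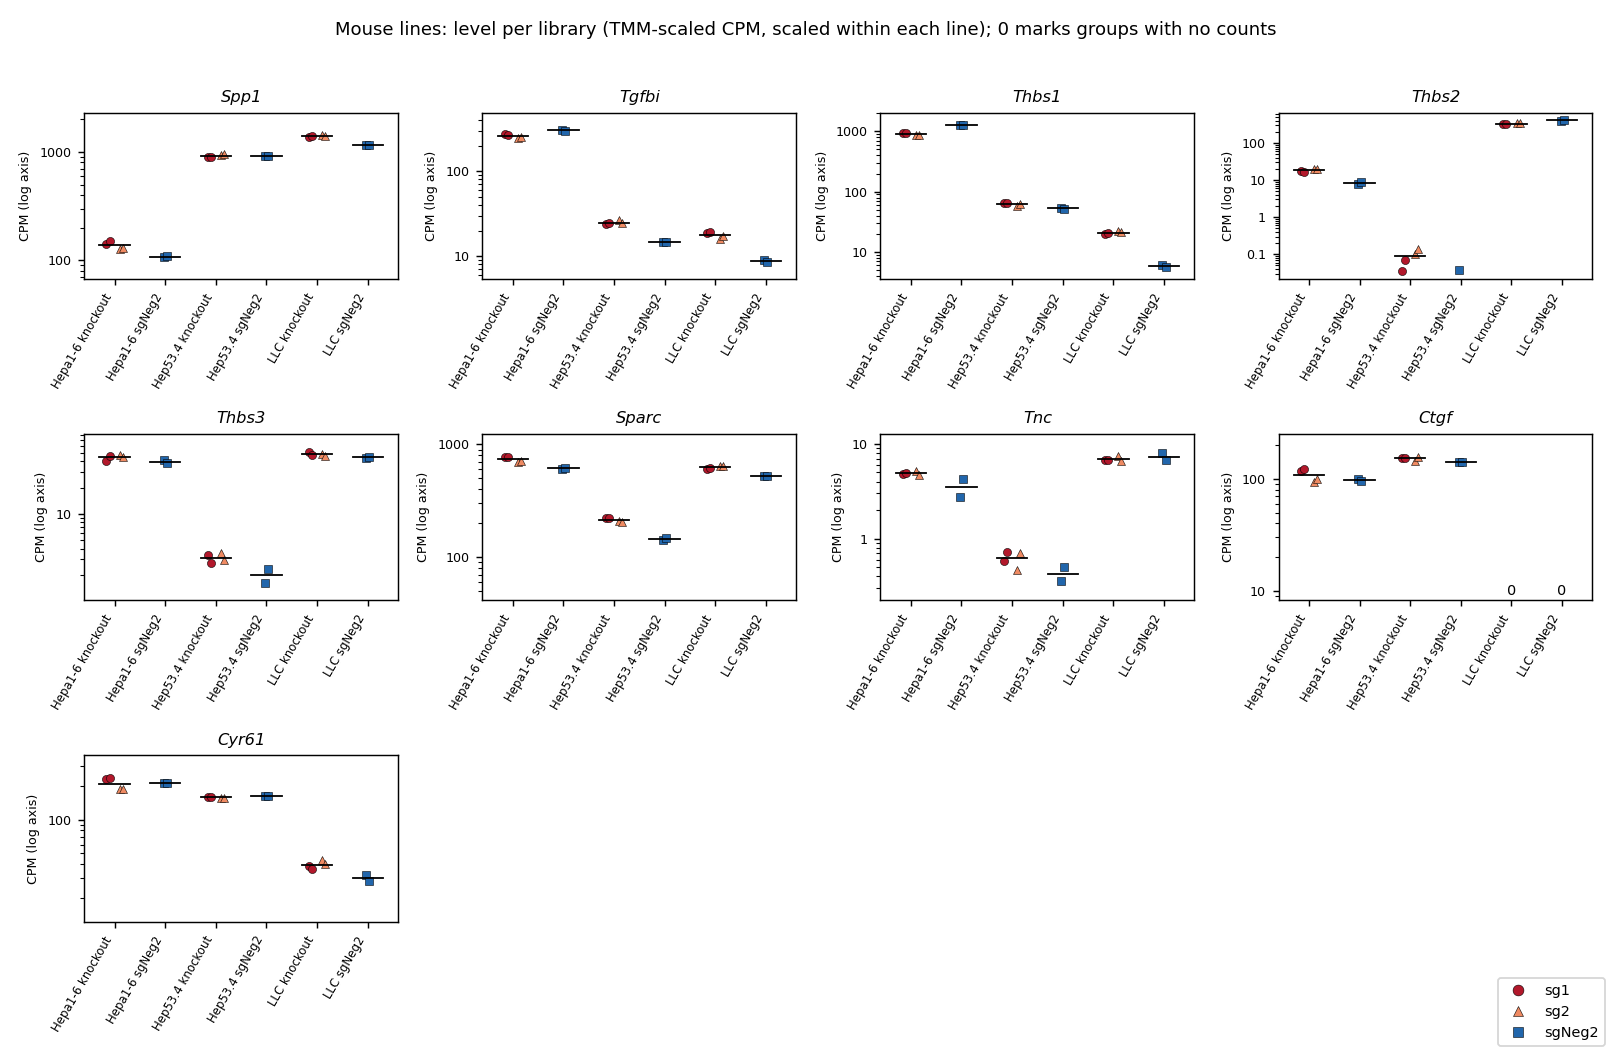
Level of 9 members in each mouse library (CPM after TMM scaling within a line, log axis), with knockout left of sgNeg2 in each line, points for libraries by guide and lines at group means. Thbs1 is at 1254 and 1276 CPM in Hepa1-6 sgNeg2 cells and at most 6.14 CPM in LLC sgNeg2 cells, Ctgf is at 0 in LLC, and 1 Hep53.4 sgNeg2 library with 0 counts of Thbs2 is not drawn.

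A joint fit of the 18 mouse libraries asked whether the knockout changes differed between lines, which was so for 5 of 9 members between Hepa1-6 and Hep53.4, 4 of 8 between Hepa1-6 and LLC and 6 of 8 between Hep53.4 and LLC. Of all genes, 24.7%, 24.6% and 29.2% differed in the same order. Thbs1 changed in each line by a different amount. The differences were -0.70 ± 0.06 (adjusted p = 9.76e-11) for Hepa1-6 minus Hep53.4, -2.33 ± 0.07 (adjusted p = 6.14e-22) for Hepa1-6 minus LLC and -1.62 ± 0.08 (adjusted p = 9.24e-17) for Hep53.4 minus LLC.

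Tgfbi differed by -1.003 ± 0.08 (adjusted p = 1.91e-11) and -1.28 ± 0.08 (adjusted p = 2.06e-13) between Hepa1-6 and the lines Hep53.4 and LLC. Thbs2 differed by 1.46 ± 0.09 (adjusted p = 2.56e-13) between Hepa1-6 and LLC. Spp1 changed more in Hepa1-6 than in Hep53.4 by 0.33 ± 0.06 (adjusted p = 0.000244) and Hep53.4 minus LLC gave -0.30 ± 0.06 (adjusted p = 0.000412), while Hepa1-6 and LLC differed by 0.03, with an interval of -0.10 to 0.16. No difference is given for Ctgf against LLC, which had 0 counts of it, nor for Postn between lines, since both Hep53.4 groups and the LLC sgNeg2 group were at 0.

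The pair of guides gave a check within the knockout cells. In HuH-7 without IFN, edgeR called 0 of 7 members between sg2 and sg1, also at an unadjusted p below 0.05, where 0% of 15341 genes were called (7.81% at an unadjusted p below 0.05, and 5057 genes without sg2 replicate 1). With IFN the guides differed in 46.3% of genes and in 2 of 7 members. CTGF was higher with sg2 than with sg1 by 0.23 ± 0.03 (adjusted p = 2.58e-06) and CYR61 by 0.28 ± 0.09 (adjusted p = 0.015). CYR61 was not called without IFN sg1 replicate 1 (0.22) or IFN sg2 replicate 1 (0.16). The DOT1L transcript itself was higher with sg2 by 0.56 in that set.

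The 2 sg1 libraries of Hepa1-6 differed most among the replicate pairs, with a chi-square per degree of freedom of 59.2. It was 6.76 for the sg2 pair of that line and next highest, 23.1, for HuH-7 sg2 without IFN. In Hepa1-6 the guides differed in 6 of 10 members, all lower with sg2, where 2.79% of all genes differed. The largest were Cyr61, at -0.31 ± 0.03 (adjusted p = 1.35e-07), and Ctgf, at -0.31 ± 0.04 (adjusted p = 2.58e-05). Spp1 (-0.20), Sparc (-0.13), Tgfbi (-0.13) and Thbs1 (-0.11) followed. Without sg1 replicate 1 or 2 the count was 3 and 2, and without sg2 replicate 1 or 2 it was 3 and 4. In Hep53.4, 1 of 8 differed (Sparc, -0.09, adjusted p = 0.0462), where 2.9% of genes did, and with the replicate block it was not called (adjusted p = 0.0513). In LLC, edgeR called 0 of 8, where 6.01% of genes differed, with 4 members and 17.9% of all genes at an unadjusted p below 0.05.

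Genes that act with the members were read from 6 lists, whose counts stand beside the share of all genes called, which was 11.3% in HuH-7 knockout without IFN, 12.4% with IFN, 33.7% with EPZ-5676, 32.8% in Hepa1-6, 39.2% in Hep53.4 and 33.5% in LLC. No list was tested against these shares. The receptors, integrins, CD44, CD47, syndecans and others, had 5 higher and 2 lower of 17 tested in HuH-7 knockout without IFN. ITGA3, an integrin subunit that pairs with ITGB1, averaged 15.5 ± 2.69 CPM in knockout and 6.63 ± 0.795 CPM in sgNeg2 libraries, a change of 1.22 ± 0.23 (adjusted p = 0.00359). CD47, a thrombospondin receptor and inhibitor of phagocytosis, averaged 3.06 ± 0.539 CPM in knockout and 1.39 ± 0.261 CPM in sgNeg2 libraries, a change of 1.13 ± 0.21 (adjusted p = 0.00398). ITGB6, the subunit of a TGF-beta activating integrin, averaged 1.07 ± 0.266 CPM in knockout and 0.0215 ± 0.0305 CPM in sgNeg2 libraries.

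CD47 was also higher with IFN in knockout cells (0.88 ± 0.18, adjusted p = 0.00553) and with EPZ-5676 (1.34 ± 0.28, adjusted p = 6.46e-05), at 1.76 ± 0.107 CPM with the inhibitor and 0.696 ± 0.192 CPM with DMSO. The list had 5 higher and 1 lower of 17 with IFN and 6 higher and 4 lower of 17 with EPZ-5676. In the mouse lines it had 3 higher and 7 lower of 16 in Hepa1-6, 6 and 6 of 14 in Hep53.4 and 2 and 5 of 13 in LLC. Lrp1, an endocytic receptor of thrombospondin 1, averaged 907 ± 25.2 CPM in knockout and 1469.6 ± 7.63 CPM in sgNeg2 libraries of Hepa1-6, a change of -0.70 ± 0.03.

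Of 11 tested TGF-beta response genes in HuH-7 without IFN, 2 were higher and 1 lower. COL1A1, a collagen chain, averaged 10.3 ± 2.04 CPM in knockout and 3.03 ± 1.49 CPM in sgNeg2 libraries, a change of 1.77 ± 0.28 (adjusted p = 0.00119). It was also called higher with IFN (2.67 ± 0.28) and with EPZ-5676 (1.78 ± 0.20), where the list had 2 higher and 0 lower of 11 and 6 higher and 2 lower of 11. In mouse the list gave 1 higher and 6 lower of 11 in Hepa1-6, where Fn1, fibronectin, was lower by 0.53, 2 and 4 of 12 in Hep53.4 and 3 and 1 of 10 in LLC, where Fn1 was higher by 0.55.

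The TGF-beta ligands, receptors and Smads gave 2 higher and 2 lower of 13 in HuH-7 knockout without IFN, 3 and 2 of 13 with IFN, 3 and 3 of 13 with EPZ-5676, 1 and 3 of 12 in Hepa1-6, 4 and 3 of 12 in Hep53.4 and 2 and 4 of 13 in LLC. LTBP1, which holds latent TGF-beta in the matrix, was higher in all 3 HuH-7 comparisons, by 0.55, 0.67 and 0.43. TGFB2, a ligand, was called higher with IFN (0.58) and with EPZ-5676 (0.74), and Tgfb2 in Hep53.4 (0.79) and LLC (0.54).

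Of the 12 genes of the YAP, TAZ and TEAD machinery edgeR called 0 in HuH-7 knockout without IFN (3 at an unadjusted p below 0.05, where 25.8% of all genes were), 0 higher and 2 lower with IFN, and 0 higher and 8 lower with EPZ-5676. TEAD1, a DNA-binding partner of YAP, was lower by either of the last comparisons, by 0.37 and 0.29. Of the 20 response genes tested, 6 were higher and 4 lower in knockout without IFN. IGFBP3, a secreted binder of insulin-like growth factors, averaged 3.54 ± 0.501 CPM in knockout and 0.405 ± 0.390 CPM in sgNeg2 libraries, a change of 3.11 ± 0.35.

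The response list gave 3 higher and 6 lower of 20 with IFN, 5 and 6 of 19 with EPZ-5676, 2 and 4 of 18 in Hepa1-6, 3 and 6 of 19 in Hep53.4 and 6 and 6 of 19 in LLC. The machinery list gave 2 and 5 of 12 in Hepa1-6, 1 and 7 of 12 in Hep53.4 and 2 and 5 of 12 in LLC. Of the other matricellular genes 1 was higher and 2 lower of 11 in HuH-7 knockout without IFN, where FSTL1, a secreted SPARC relative, averaged 3.63 ± 0.471 CPM in knockout and 0.922 ± 0.219 CPM in sgNeg2 libraries (change 1.97 ± 0.24, adjusted p = 0.000135). FSTL1 was also higher with IFN (1.00) and with EPZ-5676 (0.61), and the calcium-binding SMOC1 was lower in all 3, by 0.48, 0.46 and 0.17.

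**Figure D4:**
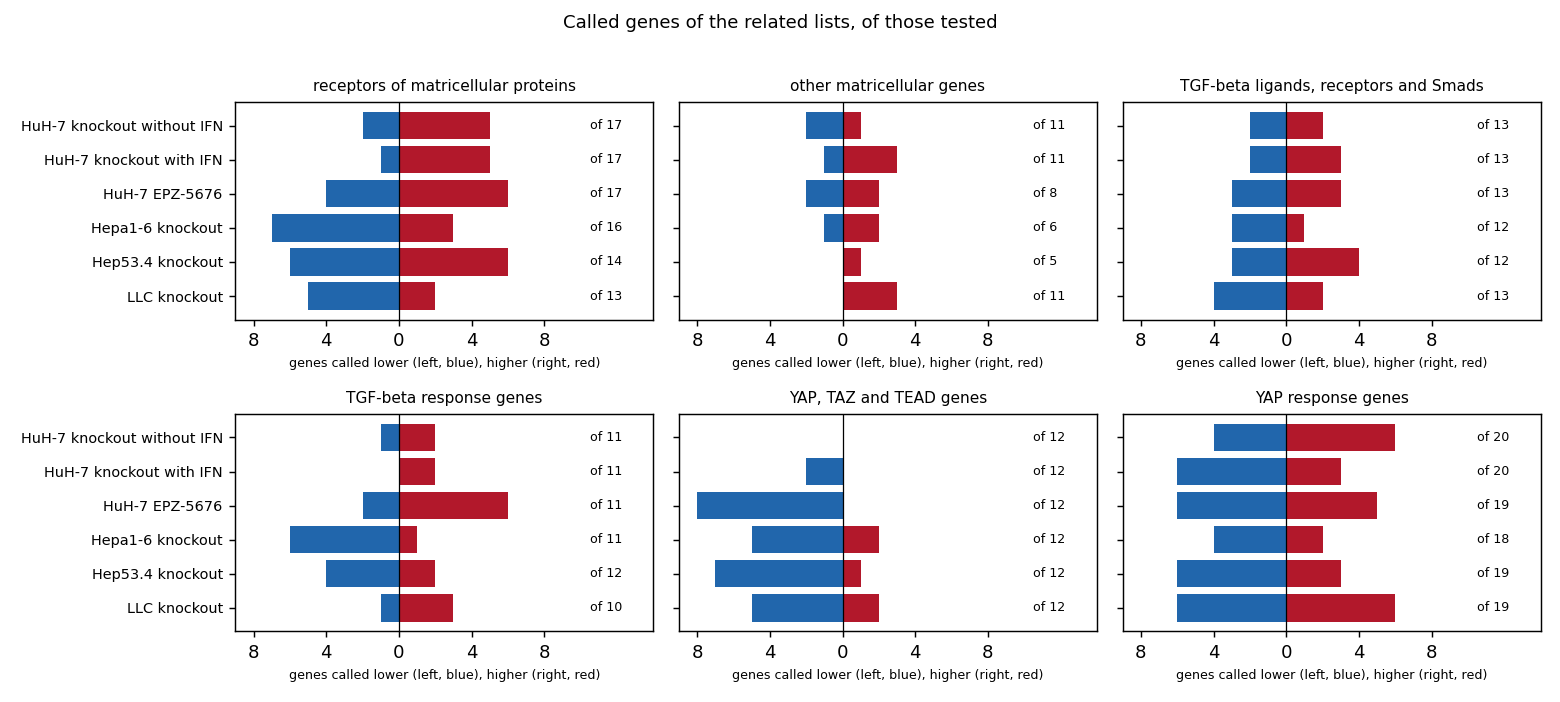
Number of genes called higher (right, red) and lower (left, blue) in 6 related lists for the 6 comparisons of knockout or EPZ-5676 with control, with the number tested at the right of each bar. The YAP, TAZ and TEAD genes range from 0 called in HuH-7 without IFN to 8 lower with EPZ-5676, and the TGF-beta response genes from 6 higher with EPZ-5676 to 6 lower in Hepa1-6.

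Likeness between genes was measured by Pearson correlation of log2(CPM + 0.5) across libraries after the mean of each IFN condition or line was subtracted. In the 12 HuH-7 guide libraries, SPP1 was most like CEACAM7, GBP5 and MAP1B (r = 0.996, 0.996 and 0.995) and TGFBI most like VIM, TUBB2B and TIMP2 (r = 0.995, 0.993 and 0.993), among 10937 genes. CTGF was most like AMBP, F2 and NEK6 (r = 0.996, 0.988 and 0.988), and CYR61 most like TOR1A, PRSS3 and CA2 (r = 0.880, 0.879 and 0.873). These libraries share the split between knockout and sgNeg2.

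In the 18 mouse libraries, among 9893 genes, Spp1 was most like Ly6c1, Ywhaz and H3f3b (r = 0.921, 0.921 and 0.916) and Tgfbi most like Txnip, Adamtsl4 and Brd2 (r = 0.963, 0.960 and 0.959). Ctgf was most like Efemp1, Inpp5d and Msln (r = 0.874, 0.855 and 0.823), and Cyr61 most like Amotl2, Shroom3 and Irf8 (r = 0.896, 0.839 and 0.835). The Amotl2 gene is itself a member of the YAP response list.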

How the data were processed

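The authors deposited gene counts per library, whole numbers for 36 libraries in 17 groups. Per the submitters' processing notes, Trim Galore, HISAT2 2.2.1, SAMtools 1.9 and DESeq2 1.36.0 were used with hg38 and mm10, while the counter, its annotation and its strand setting are named in no label. In 1 Hepa1-6 group and 1 Hep53.4 group, 1721 and 1 lines without a symbol held no gene and were left out.

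From the counts, CPM was computed on TMM-scaled library sizes. Genes passed filterByExpr (minimum count 10, minimum total 15) and were tested with edgeR 4.0.16 (R 4.3.3, limma 3.58.1) by the robust quasi-likelihood F test, with Benjamini-Hochberg adjustment over all tested genes and a call at an adjusted p below 0.05. SE is the log2 change over the square root of F, and intervals are 1.96 SE. These intervals are approximate and can be too narrow with few libraries. For example, THBS1 between guides in HuH-7 without IFN had 0.012 to 0.289, with an unadjusted p of 0.0646 by the F test. The 12 HuH-7 guide libraries shared a fit, as did the 6 drug libraries, each mouse line's 6 and, for differences between lines, all 18 mouse libraries. The pipeline was tested on simulated data with 200 genes changed. Alternatives were RLE scaling, DESeq2 1.42.0, no filter, a replicate block, single guides and each library left out. The fit of 6 HuH-7 libraries without IFN and leaving out libraries in the guide comparison were chosen after seeing the data. Figures used matplotlib 3.10.9.

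The members and lists were chosen with earlier results of these data known. All members are named, and list genes are taken from the up to 3 called ones with the largest change per comparison, plus the 3 genes most like SPP1, TGFBI, CTGF and CYR61 among those with a mean of at least 5 CPM. Not all genes that this rule gives are described, and a TGF-beta response gene among them is not reported here. Col3a1, LUM and AFP come from the marker lists by the same rule. Replicate numbers were not taken to pair libraries: residuals of same-numbered libraries correlated between -0.127 and 0.159, and in no set of guide libraries or drug libraries did all pairs exceed 0.1. All pairs were positive, however, in Hepa1-6 (0.0994 to 0.159) and in the drug set (0.0856 to 0.126), so a weak pairing there is possible.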

Additional observations from a re-analysis of the deposited data

Results flagged for a closer look

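Within the 50 groups of 4 knockout libraries tested, 5 held a library set apart from the others. Chance flags about 1 in 20 where values are continuous. That rate does not hold at few counts: a group at 0 in all but 1 library is always flagged, and a group all at 0 cannot be. Each group holds libraries of both guides. Tgfbi in Hep53.4 had 26.4 CPM (1295 counts) in sg2 replicate 1, where the nearest other library had 24.4 CPM. The other 4 rest on few counts. TNC in HuH-7 without IFN had 0.492 CPM (12 counts) in sg1 replicate 1, with 0.0417 CPM as the nearest. THBS2 in HuH-7 had 0.0874 CPM (4 counts) in IFN sg2 replicate 2 and 0.0410 CPM (1 count) in sg1 replicate 1 without IFN, and Postn in LLC had 0.0802 CPM (4 counts) in sg2 replicate 1, each with 0 in the other knockout libraries.

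The knockout change differed between mouse lines for several members by edgeR's test of the difference in the joint fit. For Hepa1-6 minus Hep53.4 the log2 differences were -0.70 for Thbs1, -0.49 for Thbs3 (adjusted p = 0.0216), 0.33 for Spp1, -0.30 for Sparc (adjusted p = 0.000165) and -1.003 for Tgfbi. For Hepa1-6 minus LLC they were -2.33 for Thbs1, 1.46 for Thbs2, -1.28 for Tgfbi and -0.44 for Cyr61 (adjusted p = 0.0159). For Hep53.4 minus LLC they were -1.62 for Thbs1, 0.51 for Thbs3 (adjusted p = 0.0149), -0.30 for Spp1, 0.27 for Sparc (adjusted p = 0.000437), -0.28 for Tgfbi (adjusted p = 0.0227) and -0.45 for Cyr61 (adjusted p = 0.011). Those of Thbs3, Cyr61 and, between Hep53.4 and LLC, Tgfbi were lost without single sgNeg2 libraries. For Hepa1-6 minus Hep53.4, Thbs3 was also lost without Hep53.4 sg1 replicate 1 or sg2 replicate 1. For Hep53.4 minus LLC, Thbs3 was also lost with sg1 alone (0.41, adjusted p = 0.0712). Tgfbi was there also lost with sg2 alone (-0.15, adjusted p = 0.21) and without LLC sg1 replicate 2 (-0.24, adjusted p = 0.0507).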

How the results depend on the processing

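With one library left out at a time, 992 values for single members kept their direction and side of the threshold, 47 lost a call, 11 gained one and none reversed. The number of members called then ranged over 2 to 4 for HuH-7 knockout without IFN and with IFN, 3 to 4 and 5 to 6 for IFN in sgNeg2 and knockout cells, 0 for the interaction, 5 for EPZ-5676, 6 to 8 in Hepa1-6, 3 to 5 in Hep53.4 and 6 in LLC. For the line differences it was 4 to 5 (Hepa1-6 minus Hep53.4), 3 to 5 (Hepa1-6 minus LLC) and 4 to 7 (Hep53.4 minus LLC), and between guides 0 and 1 to 3 in HuH-7 without and with IFN, 2 to 6 in Hepa1-6, 0 to 1 in Hep53.4 and 0 to 2 in LLC. The interaction gave 1 member with DESeq2 and 2 with sg2 alone. With the replicate block, 4 members were called in HuH-7 knockout without IFN, as without it, and the block changed 1 member call, Sparc between guides in Hep53.4 (0 members called). Reversed values were THBS3 0.49, SPP1 -0.61 and CYR61 0.36 for IFN sgNeg2 against DMSO, and Cyr61 0.13 for sg1 alone in Hepa1-6; the cause was not tested. Counts over all genes moved by over 1.5 times as follows. HuH-7 knockout without IFN had 1863 calls, and 564 and 632 without either sgNeg2 library, 3028 and 3901 with sg1 or sg2 alone and 2897 in the 6-library fit. With IFN it had 2037, against 978 and 960, 4359 and 5069, and 1000 under the same changes. The interaction had 83, against 19 to 176 with a library left out, 53 with the replicate block, 400 with DESeq2, 641 with sg1 alone and 4171 with sg2 alone. Hepa1-6 had 4095 and LLC 4097, against 2381 and 2519 without sgNeg2 replicate 1. Between guides, the counts 0, 348, 355 and 735 in HuH-7 without IFN, Hepa1-6, Hep53.4 and LLC became 0 to 5057, 116 to 435, 50 to 390 and 227 to 1145. Depth limits the members with few counts (THBS2, TNC and POSTN in HuH-7, Thbs2 in Hep53.4 and Postn in mouse).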
